A study of Mus musculus with 14 samples.

Results

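The 55 genes described here encode the machinery of cell division: mitotic cyclins and kinases, condensins and other chromosome proteins, kinetochore and spindle checkpoint proteins, kinesin motors, spindle proteins, chromosomal passengers and cytokinesis proteins. They were chosen by symbol, from a list of division genes, out of 22116 named genes in the count table. Earlier results of these data were known when the choice was made. All 55 were found, each in 1 row, and all 55 had enough reads to be tested among 15159 genes. The lowest count of any of them in any library was 38, for Cdc25c.

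Messenger RNA of whole spleens was sequenced from 14 female wild-type BALB/c mice aged 6 to 8 weeks, the animals of a study of skin inflammation models of psoriasis. The 3 control mice received petrolatum vehicle on the back and the ears (labelled replicates 2, 4 and 5), while the series' design text says that they had no treatment. Imiquimod, which activates Toll-like receptor 7 and is used to provoke psoriasis-like inflammation, was given as a 5% cream once daily for 5 days, to the dorsal skin of 4 mice (imiquimod-dorsal, replicates 2 to 5) or to the ear of 4 others (imiquimod-ear, replicates 1, 3, 4 and 5). In the IL-23-ear group 3 mice (replicates 1 to 3) had recombinant mouse IL-23, the cytokine that sustains IL-17-producing T cells, injected into the ear skin at 1 µg per ear, 4 injections over 7 days. The controls had no injection, and the IL-23 course ran longer than the imiquimod course, so injection and duration cannot be told apart from IL-23 in any comparison of that group. Skin was not analysed here, and the spleen is a mixture of cells in which more dividing cells and more of these transcripts per cell cannot be told apart.

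As background, a cell enters mitosis when cyclin B and its kinase CDK1 become active. Condensins and topoisomerase II compact and untangle the chromosomes, and kinetochores assemble on the centromeres and bind the microtubules of the spindle. The spindle checkpoint holds the anaphase-promoting complex in check until every kinetochore is attached, after which CDC20 and UBE2C let it destroy securin and cyclin B and the cell divides. Transcripts of many of these genes accumulate in the G2 phase and mitosis and are low in resting cells, so that their level in a tissue is commonly read as a sign of dividing cells. In the adult mouse spleen, erythroid and myeloid precursors of the red pulp and activated B cells and plasmablasts are known dividing populations.

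Since the 55 genes moved together in these libraries, their promoters are shown for the letters through which such genes are known to be repressed in resting cells and driven in G2. These are the cell cycle genes homology region, searched here as TTTGAA or TTTAAA or TTCGAA, and the CCAAT box, which binds NF-Y. RefSeq promoters of the GRCm38.p6 assembly, 250 bases before to 50 bases after the gene start, were on hand for 47 of the 55 genes. Of these 47, 40 (85.1%) held a homology region motif on either strand, against 31.9% of all 27025 genes with a promoter of that length. A CCAAT box was found in 34 (72.3%, against 41.1%), 2 or more of them in 22 (46.8%, against 13.3%), and both kinds of motif in 33 (70.2%, against 12.8%). On the strand of the gene alone, both kinds were found in 14 (29.8%, against 5.81%). The 33 genes with both kinds had a median log2 fold change of 2.93 in imiquimod-dorsal spleens and the 14 without both one of 2.75.

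The windows below run from 130 bases before to 20 bases after the start and are printed 5′ to 3′ on the strand of the gene. Capitals mark a homology region motif or a CCAAT box, and ATTGG or TTCAAA is the same motif read from the other strand. The first 5 are genes of mitotic entry and exit that rose steeply after imiquimod. Bub3 and Kif20b, the pair with the smallest changes in imiquimod-dorsal spleens, are shown beside them. This choice was made after the values were seen.
Ube2c (chr2:164769799-164769948, plus strand): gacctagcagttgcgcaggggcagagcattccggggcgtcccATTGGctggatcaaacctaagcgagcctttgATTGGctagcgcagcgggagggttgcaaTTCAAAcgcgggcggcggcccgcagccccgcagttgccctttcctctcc
Ccnb1 (chr13:100786467-100786616, minus strand): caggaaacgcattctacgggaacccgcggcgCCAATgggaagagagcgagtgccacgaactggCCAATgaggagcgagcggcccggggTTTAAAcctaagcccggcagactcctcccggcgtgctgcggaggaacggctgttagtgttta
Ccnb2 (chr9:70421535-70421684, minus strand): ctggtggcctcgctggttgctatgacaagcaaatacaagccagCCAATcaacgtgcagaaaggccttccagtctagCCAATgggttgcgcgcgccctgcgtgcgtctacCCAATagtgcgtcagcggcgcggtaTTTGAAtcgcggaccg
Cdk1 (chr10:69352893-69353042, minus strand): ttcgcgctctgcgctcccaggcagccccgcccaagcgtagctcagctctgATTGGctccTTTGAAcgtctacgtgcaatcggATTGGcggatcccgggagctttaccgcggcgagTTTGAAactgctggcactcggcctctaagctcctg
Cdc20 (chr4:118437324-118437473, minus strand): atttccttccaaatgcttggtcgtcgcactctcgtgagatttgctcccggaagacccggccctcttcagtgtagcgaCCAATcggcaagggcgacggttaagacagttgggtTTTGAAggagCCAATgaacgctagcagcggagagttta
Bub3 (chr7:131560240-131560389, plus strand): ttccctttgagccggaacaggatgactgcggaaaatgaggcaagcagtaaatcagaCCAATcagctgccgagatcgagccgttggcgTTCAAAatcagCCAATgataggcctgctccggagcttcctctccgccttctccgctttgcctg
Kif20b (chr19:34922228-34922377, plus strand): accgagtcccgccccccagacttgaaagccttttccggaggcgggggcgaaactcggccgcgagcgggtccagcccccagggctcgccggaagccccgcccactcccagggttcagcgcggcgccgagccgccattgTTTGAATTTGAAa

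In these windows Ube2c, Ccnb1, Ccnb2, Cdk1 and Cdc20 each carry CCAAT boxes upstream of, or flanking, a homology region motif. Bub3 has the same arrangement, although its transcript had the smallest change of the 55 in imiquimod-dorsal spleens. Kif20b has a homology region motif just after the start but no CCAAT letters in its window. A match is only a match of letters, and binding was not measured.

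Depth was similar across the series: counts over named genes ranged from 28354674 to 40289411 per library. Levels are given as CPM, read counts scaled to the size of the library with TMM factors, and changes as log2 fold changes ± SE from edgeR's quasi-likelihood test over all 14 libraries. A gene was called when its p-value, adjusted over all genes tested after Benjamini and Hochberg, was under 0.05, and every adjusted p of a single gene below is from that test. Values of single libraries follow the order of their replicate numbers, and gene coordinates are of GRCm39. Markers of spleen B cells summed to 3106 to 4416 CPM in every library, which matched the labelled tissue. The imiquimod-dorsal library 4 also held 8925 counts of pancreatic enzyme genes, against 236 to 567 in the other 13 libraries.

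In the spleens of mice with imiquimod on the back, every one of the 55 genes rose. The called share of all genes tested was 32.3% for a rise, 27.6% for a fall and 59.8% for either direction. The median log2 fold change of the 55 genes was 2.89, against -0.00067 over all genes tested, and 50 of the 55 rose at least 4-fold and 17 at least 8-fold. In each of the 55 genes the lowest imiquimod-dorsal library lay above the highest control library. Here and in the later comparisons such separation is given for the 55 genes only, without its share over all genes tested. Summed over the 55 genes, the level went from 1828.5 ± 436 CPM (SD, n = 3) in the control to 11839 ± 1485 CPM (SD, n = 4) in the imiquimod-dorsal libraries. Changes were unequal: they ran from 1.01 for Bub3 to 3.59 for Ccna2.

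**Figure D1:**
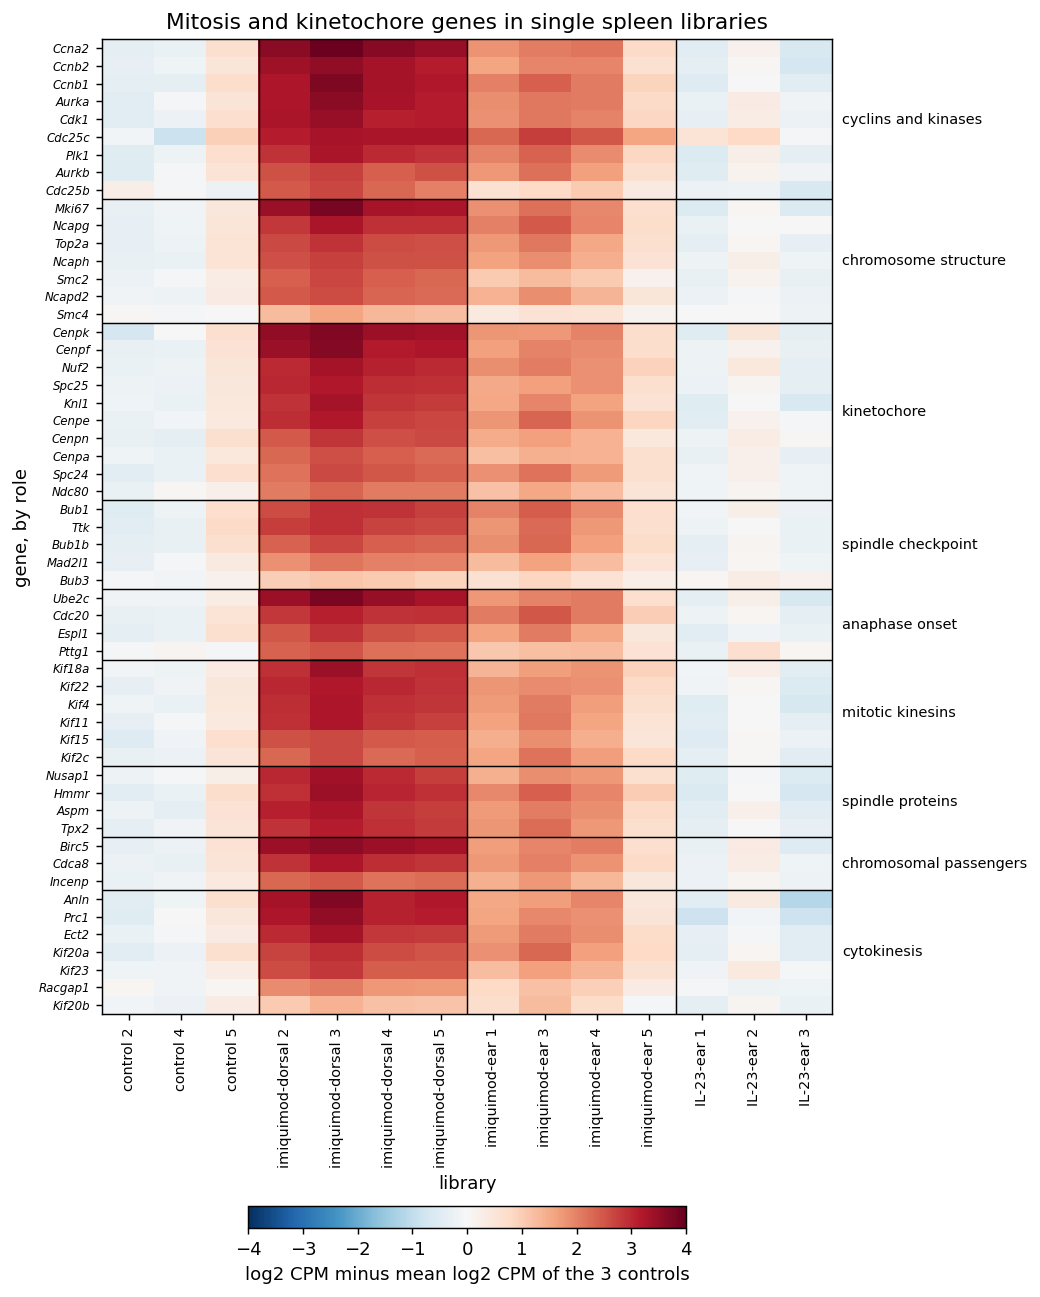
Level of each of the 55 genes (rows, grouped by role) in each of the 14 spleen libraries (columns, split by group), as log2 CPM minus the mean log2 CPM of the 3 control libraries; red is higher and blue lower. All 4 imiquimod-dorsal columns are red throughout, the imiquimod-ear columns are paler with library 5 the palest, and the IL-23-ear columns look like the controls.

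The 9 cyclins, kinases and phosphatases that start and carry mitosis rose by a median of 3.17 in imiquimod-dorsal spleens, the largest of the 9 roles. Ccna2 (cyclin A2, chr3:36619014-36626299, minus strand), which partners CDK2 and CDK1 through S phase and G2, stood at 37.1, 40.7 and 76.1 CPM in the control libraries and at 596, 736, 601 and 545 CPM in the imiquimod-dorsal libraries. Its change of 3.59 ± 0.37, or 12.1-fold, was the largest of the 55 (adjusted p = 7.78e-06). Ccnb1 (cyclin B1), whose complex with CDK1 triggers mitosis, had 17.3, 17.2 and 36.3 CPM in the control libraries and 210.0, 292, 220.0 and 205 CPM in the imiquimod-dorsal libraries. In both cyclins control 5 was the highest control, and the lowest imiquimod-dorsal library was still far above it.

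Cdk1, the kinase itself, stood at 17.3, 20.1 and 37.4 CPM in the control and 225, 261, 205 and 209 CPM in the imiquimod-dorsal libraries, a change of 3.17 ± 0.35 (adjusted p = 1.10e-05). Plk1, a kinase of mitotic entry and spindle assembly, had 16, 19.6 and 35.5 CPM in the control and 167, 216, 177 and 164 CPM in the imiquimod-dorsal libraries. Aurka, the centrosome and spindle pole kinase, had 10.4, 13.5 and 20.3 CPM in the control and 134, 174, 141 and 126 CPM in the imiquimod-dorsal libraries. These 3 kinases kept the same picture, with the treated libraries close to each other and far from the controls. Aurkb, the kinase of the chromosomal passenger complex, rose from 14.6, 19.9 and 30.1 CPM to 119, 137, 109 and 121 CPM.

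CDC25 phosphatases remove the inhibitory phosphates from CDK1. Cdc25b, with 79.3, 63.7 and 56.2 CPM in the control and 357, 419, 325 and 267 CPM in the imiquimod-dorsal libraries, had the lowest change of the role, 2.36 ± 0.20 (adjusted p = 1.32e-06). It was one of 3 genes in which control 5 was not the highest control. Cdc25c was the rarest of the role, with 2.08, 1.22 and 4.35 CPM in the control and 19.5, 21.7, 21.5 and 21.2 CPM in the imiquimod-dorsal libraries, and its treated libraries differed little, with a coefficient of variation of 4.84%, the lowest of the 55 genes in that group.

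Among the 7 genes of chromosome structure, Mki67 (chr7:135291513-135318299, minus strand) encodes Ki-67, the coat of mitotic chromosomes and a common proliferation marker. It had 132, 147 and 224 CPM in the control libraries and 1789, 2252, 1617 and 1579 CPM in the imiquimod-dorsal libraries, a change of 3.43 ± 0.35 (adjusted p = 7.40e-06). Top2a (chr11:98883769-98915062, minus strand), which encodes topoisomerase II alpha, went from 100.5, 109 and 182 CPM to 793, 923, 773 and 749.9 CPM, a change of 2.63 ± 0.32. Mki67 and Top2a together made up 16.3% of the summed level of the 55 genes in the control libraries and 22.1% in the imiquimod-dorsal libraries.

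The condensin genes rose unequally. Smc2, an ATPase core subunit of both condensins, had 45.5, 52 and 66.1 CPM in the control and 285, 345, 284 and 265 CPM in the imiquimod-dorsal libraries, a change of 2.43 ± 0.24. Its partner Smc4 (chr3:68911944-68941960, plus strand) was already at 223, 209 and 216 CPM in the control libraries and reached 516, 642, 537 and 507 CPM, a change of only 1.35 ± 0.11 (adjusted p = 9.70e-07). The subunits of condensin I lay higher, at 2.40 ± 0.26 for Ncapd2, 2.55 ± 0.29 for Ncaph and 2.94 ± 0.35 for Ncapg. Ncapd2 stood at 59.6, 56.2 and 82.4 CPM in the control and 358, 398, 327 and 316 CPM in the imiquimod-dorsal libraries.

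All 10 kinetochore genes rose, by a median of 2.91. Cenpa, the histone variant that marks the centromere, had 28.8, 26.7 and 43.6 CPM in the control and 157, 192, 170.3 and 156 CPM in the imiquimod-dorsal libraries. Knl1, the scaffold that recruits checkpoint proteins, had 12.1, 11.3 and 18.1 CPM in the control and 99.3, 135, 98.4 and 93.7 CPM in the imiquimod-dorsal libraries. Cenpe, a kinetochore motor that carries chromosomes to the spindle equator, had 15.2, 17.2 and 24.03 CPM in the control and 142, 170.3, 124 and 117 CPM in the imiquimod-dorsal libraries. In these genes imiquimod-dorsal 3 was the highest of the 4 treated mice each time, and every treated library lay far above the controls.

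The NDC80 complex, which holds the microtubule ends, has 4 subunits, and their changes spread over nearly 1 log2 unit. Ndc80 had 12.6, 15.6 and 17.2 CPM in the control and 63.9, 75.3, 63.4 and 63.2 CPM in the imiquimod-dorsal libraries, a change of 2.14 ± 0.20 (adjusted p = 1.98e-06). Its other subunits changed by 2.34 ± 0.34 (Spc24), 2.99 ± 0.27 (Spc25) and 3.05 ± 0.30 (Nuf2). The exons of Spc25 overlap those of Nostrin on the other strand over 52.5% of their length, and reads of the pair cannot be told apart in these non-stranded libraries. Cenpk, a constitutive centromere subunit, rose by 3.41 ± 0.37, the most of the kinetochore genes, from a low level of 2.31, 3.65 and 5.83 CPM. Cenpf, a large outer kinetochore protein, rose by 3.34 ± 0.32 and Cenpn by 2.56 ± 0.31.

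The 5 spindle checkpoint genes had the smallest median rise of the roles, 2.36. Bub3 (chr7:131161880-131178553, plus strand), a checkpoint scaffold, stood at 82.9, 82.8 and 101 CPM in the control and 177, 190.5, 184 and 163 CPM in the imiquimod-dorsal libraries. Its change of 1.01 ± 0.12, or 2.01-fold, was the smallest of the 55, although the groups did not overlap (adjusted p = 1.17e-05). Mad2l1 (MAD2), the inhibitor of CDC20, went from 26.5, 32.2 and 42.9 CPM to 117, 148, 135 and 130.1 CPM, a change of 1.97 ± 0.23. Bub1, the kinase that docks the checkpoint on kinetochores, had 7.92, 9.70 and 17.9 CPM in the control and 68.3, 85.04, 81.7 and 74.4 CPM in the imiquimod-dorsal libraries, a larger change of 2.71 ± 0.38. Ttk (the kinase MPS1) rose by 2.64 ± 0.36 and Bub1b (BUBR1) by 2.36 ± 0.35.

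Genes of anaphase onset ranged from 2.32 to 3.49. Cdc20, the activator of the anaphase-promoting complex, had 22.3, 22.98 and 39.96 CPM in the control and 194, 236, 201 and 208 CPM in the imiquimod-dorsal libraries. Ube2c (chr2:164611768-164620742, plus strand), the ubiquitin-conjugating enzyme of that complex, had 30.97, 30.9 and 41.5 CPM in the control and 366, 463, 383 and 333 CPM in the imiquimod-dorsal libraries. Its change of 3.49 ± 0.33 was the second largest of the 55 (adjusted p = 4.06e-06). Securin and separase, the inhibitor and the protease that opens cohesin, moved less: Pttg1 (securin) went from 14.6, 16.4 and 14.5 CPM to 78.2, 86.9, 69.3 and 67.5 CPM, a change of 2.32 ± 0.21. Espl1 (separase) rose by 2.53 ± 0.35.

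The 6 mitotic kinesins rose by a median of 2.94. Kif11, which slides spindle microtubules apart, had 26.8, 32.03 and 44.6 CPM in the control and 256, 319, 245 and 226 CPM in the imiquimod-dorsal libraries. Kif22, a chromokinesin that pushes chromosome arms, had 18.5, 21.2 and 32.04 CPM in the control and 189, 215, 187 and 173 CPM in the imiquimod-dorsal libraries. Both had separated groups and similar changes, 2.92 ± 0.32 and 3.00 ± 0.28. The chromokinesin Kif4 rose by 2.96 ± 0.31, Kif18a, which dampens chromosome movements, by 3.03 ± 0.25, Kif15 by 2.43 ± 0.33 and the microtubule depolymerase Kif2c by 2.36 ± 0.30.

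Spindle proteins were the most uniform role, with 4 changes between 2.89 (Tpx2, an activator of Aurora A) and 3.04 (Nusap1). Aspm, a spindle pole protein, went from 10.8, 9.50 and 18.3 CPM to 107, 119.7, 89.7 and 84.3 CPM. Hmmr, a microtubule-binding spindle protein, went from 11.7, 13.1 and 25.7 CPM to 121, 171, 131 and 120.2 CPM, a change of 3.01 ± 0.36. Of the chromosomal passengers, Birc5 (survivin) rose most, with 22.4, 24.3 and 42.2 CPM in the control and 301, 341, 307 and 286 CPM in the imiquimod-dorsal libraries, a change of 3.38 ± 0.35 (adjusted p = 7.74e-06). Cdca8 (borealin) rose by 2.94 ± 0.30 and the scaffold Incenp by 2.27 ± 0.26.

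The 7 cytokinesis genes spread widely, from 1.18 to 3.27. Prc1, which bundles the central spindle, stood at 18.9, 26.4 and 36.1 CPM in the control and 248, 307, 221 and 228 CPM in the imiquimod-dorsal libraries, a change of 3.21 ± 0.35. Anln (anillin), the scaffold of the contractile ring, went from 7.61, 9.15 and 16.01 CPM to 103, 136, 87.3 and 95.1 CPM, a change of 3.27 ± 0.43. At the other end, Kif20b (chr19:34899752-34953149, plus strand), a kinesin of late cytokinesis, had 24.4, 22.4 and 32.6 CPM in the control and 54.5, 69.2, 58.9 and 57.7 CPM in the imiquimod-dorsal libraries, a change of 1.18 ± 0.25 (adjusted p = 0.00117). The centralspindlin pair differed, at 1.84 ± 0.16 for Racgap1 and 2.56 ± 0.23 for Kif23. Ect2, the exchange factor that activates RhoA at the division plane, rose by 2.98 ± 0.29, and Kif20a by 2.63 ± 0.34, although 54.8% of the exon length of Kif20a overlaps genes of the other strand.

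**Figure D2:**
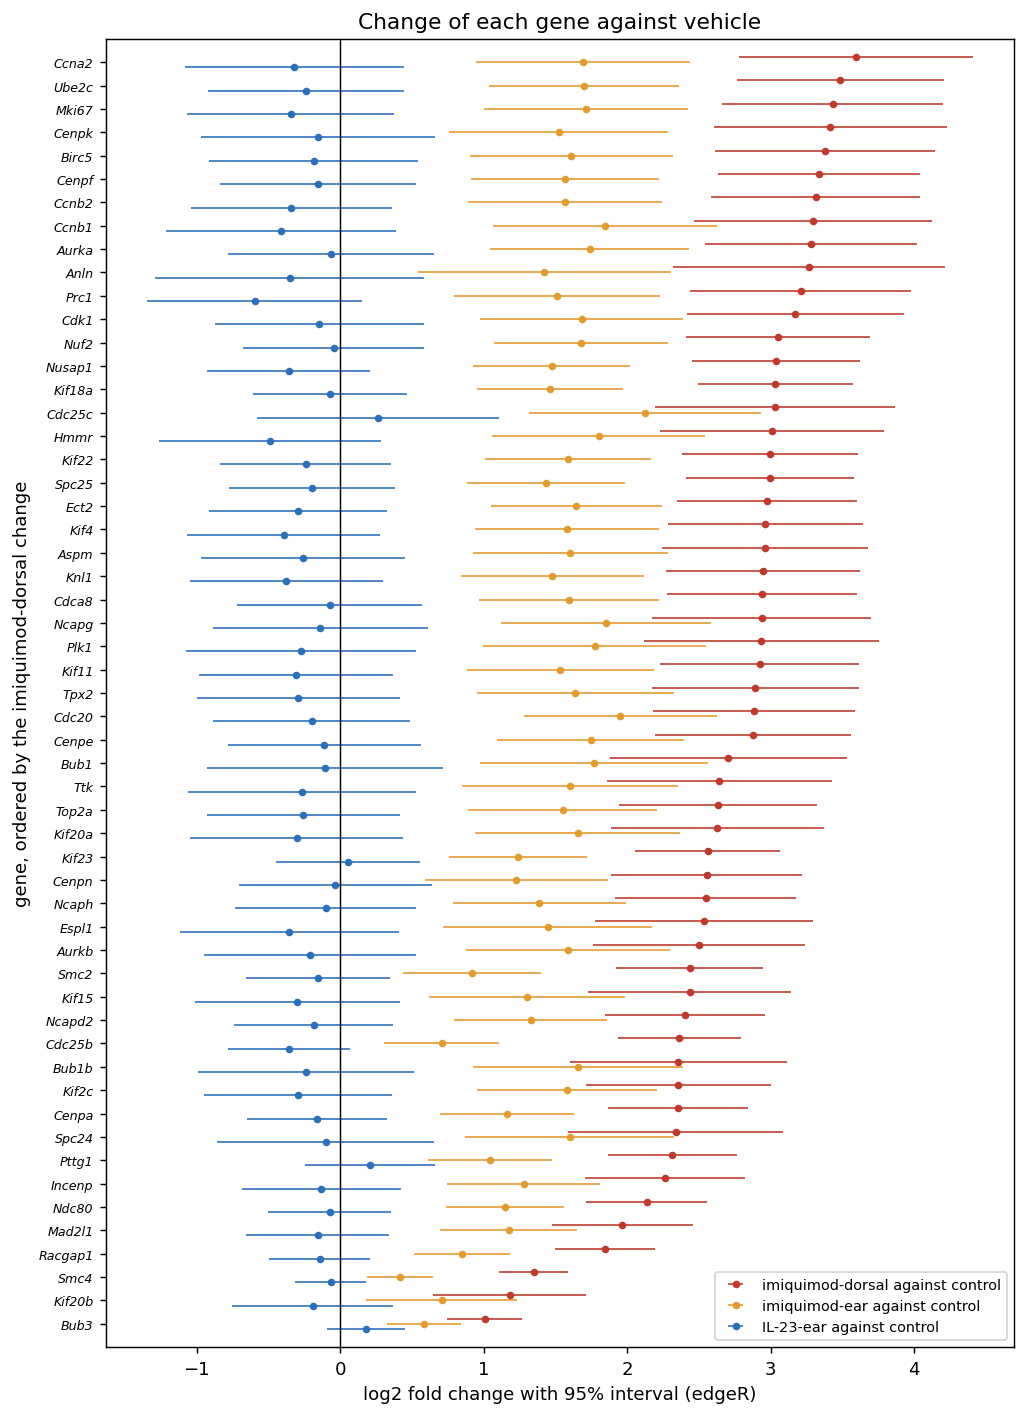
Log2 fold change against control with its 95% interval for each of the 55 genes (rows, ordered by the imiquimod-dorsal change), in imiquimod-dorsal (red), imiquimod-ear (orange) and IL-23-ear (blue) spleens. Red points run from 1.01 to 3.59 and orange points from 0.42 to 2.12, while the interval of every blue point includes 0.

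Per kilobase of transcript, the levels of different genes can be set side by side. In the control libraries Smc4 was the most abundant of the 55, at 50.03 CPM per kb, followed by Ube2c at 35.6 and Birc5 at 30.2 CPM per kb, and Cdc25c (1.29) and Aspm (1.30) were the rarest. In the imiquimod-dorsal libraries the order had changed at the top: Ube2c reached 399.5, Birc5 315 and Ccna2 209 CPM per kb, with Smc4 at 127 CPM per kb. Transcript length was that of the annotated canonical transcript, and the isoforms used in spleen were not measured.

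Imiquimod on the ear raised the same machinery by a smaller amount. Of the 55 genes, 54 rose and none fell, against 14.3% of all genes tested called higher, 6.98% called lower and 21.2% called in either direction. The median log2 fold change was 1.57, against 0.02 over all genes tested, and 49 of the 55 rose at least 2-fold. The summed level was 4715 ± 1511 CPM (SD, n = 4). In 46 genes every imiquimod-ear library lay above every control library, and in 9 the groups overlapped. The share of all genes tested with such separation is not given. The comparison shares its controls with the imiquimod-dorsal comparison.

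Mki67 stood at 575, 749, 615 and 262 CPM in the imiquimod-ear libraries, a change of 1.72 ± 0.33 (adjusted p = 0.00528), and Top2a at 416, 546, 371 and 197 CPM, a change of 1.55 ± 0.30. In both, libraries 1, 3 and 4 were clearly above the controls and library 5 was just above the highest of them. Ccna2 had 169.5, 199, 213 and 82.99 CPM and changed by 1.69 ± 0.34 (adjusted p = 0.0064). Ccnb1 had 89.98, 116, 93.1 and 40.7 CPM and changed by 1.85 ± 0.36. Cdk1, with 83.8, 102, 93.6 and 41.7 CPM, changed by 1.68 ± 0.33. Library 5 was again the lowest of the 4 each time, and the 9 cyclins and kinases had a median of 1.69.

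Cdc25c had the largest change of the 55 in imiquimod-ear spleens, 2.12 ± 0.37, with 10.9, 15, 12.4 and 6.61 CPM (adjusted p = 0.00377), and Cdc20 the next, 1.95 ± 0.31, with 117, 153, 116 and 54.2 CPM (adjusted p = 0.00296). The other phosphatase, Cdc25b, was at the low end, with 101, 113, 136 and 83.7 CPM and a change of 0.71 ± 0.19 (adjusted p = 0.0177). Plk1 reached 87.7, 114, 83.1 and 39.7 CPM, Aurka 51.1, 61.9, 60.2 and 23.99 CPM and Aurkb 68.7, 94.4, 63.8 and 31.8 CPM, with changes of 1.77 ± 0.36, 1.74 ± 0.32 and 1.59 ± 0.33. For each of these kinases library 3 was the highest and library 5 the lowest.

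The kinetochore genes rose by a median of 1.502. Cenpa had 74.5, 87.3, 84.3 and 50.3 CPM and Ndc80 33.9, 43.4, 35.2 and 21.5 CPM, with changes of 1.16 ± 0.22 and 1.15 ± 0.19. Knl1 had 39.9, 52.7, 41.6 and 20.2 CPM and Cenpe 62.4, 93.1, 63.8 and 33.2 CPM, with changes of 1.48 ± 0.29 and 1.75 ± 0.30. In these 4 genes all imiquimod-ear libraries lay above all controls. The spindle checkpoint median, 1.60, was not the smallest of the roles here: Bub1 stood at 43.96, 59.2, 41.2 and 17.6 CPM, with library 5 inside the control range, and changed by 1.77 ± 0.36 (adjusted p = 0.00699). Mad2l1 stood at 79.7, 101, 77.9 and 48.04 CPM and changed by 1.18 ± 0.22.

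The smallest changes were those of Smc4 and Bub3. Smc4 had 282, 320.1, 316 and 237 CPM, all above the controls, a change of 0.42 ± 0.11 (adjusted p = 0.0157), and Bub3 had 135, 159, 133 and 106 CPM, a change of 0.58 ± 0.12 (adjusted p = 0.00582). Only Kif20b was not called, with 42.5, 62.4, 43.1 and 25.1 CPM, a change of 0.71 ± 0.24 and an adjusted p of 0.0553. Its library 5 lay within the controls, and DESeq2 did call it. Smc2 had 110.1, 131, 111 and 61.2 CPM and Ncapd2 172, 234, 167 and 91.04 CPM, with changes of 0.92 ± 0.22 and 1.33 ± 0.25.

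Of the remaining roles, Ube2c had 113, 135, 145 and 54.95 CPM and Pttg1 31.8, 34.7, 35.9 and 22.7 CPM, with changes of 1.70 ± 0.31 and 1.04 ± 0.20. Kif11 had 103, 146, 101 and 49.6 CPM and Kif22 79.8, 85.8, 83.1 and 39.4 CPM, with changes of 1.53 ± 0.30 and 1.59 ± 0.27. Aspm had 39.9, 51.4, 44.7 and 21.1 CPM and Hmmr 60.4, 82.4, 60.6 and 32.1 CPM, with changes of 1.61 ± 0.31 and 1.80 ± 0.34. All 6 had separated groups. Birc5 had 90.1, 109.7, 117 and 45.4 CPM and Prc1 78.1, 99.5, 93.97 and 37.7 CPM, with changes of 1.61 ± 0.33 and 1.51 ± 0.33. In Anln, with 30.2, 33.1, 39.8 and 14.3 CPM, library 5 lay inside the control range, and the change was 1.42 ± 0.40 (adjusted p = 0.0281).

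Single libraries mattered for the imiquimod-ear calls. Without control 4, 43 genes were called higher and without control 2, 47, while without imiquimod-ear 5 all 55 were called and the median was 1.74. A fit of the imiquimod-ear and control libraries alone called 45, losing Anln, Cdc25b, Cenpk, Cenpn, Espl1, Kif15, Smc2, Smc4 and Ttk.

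**Figure D3:**
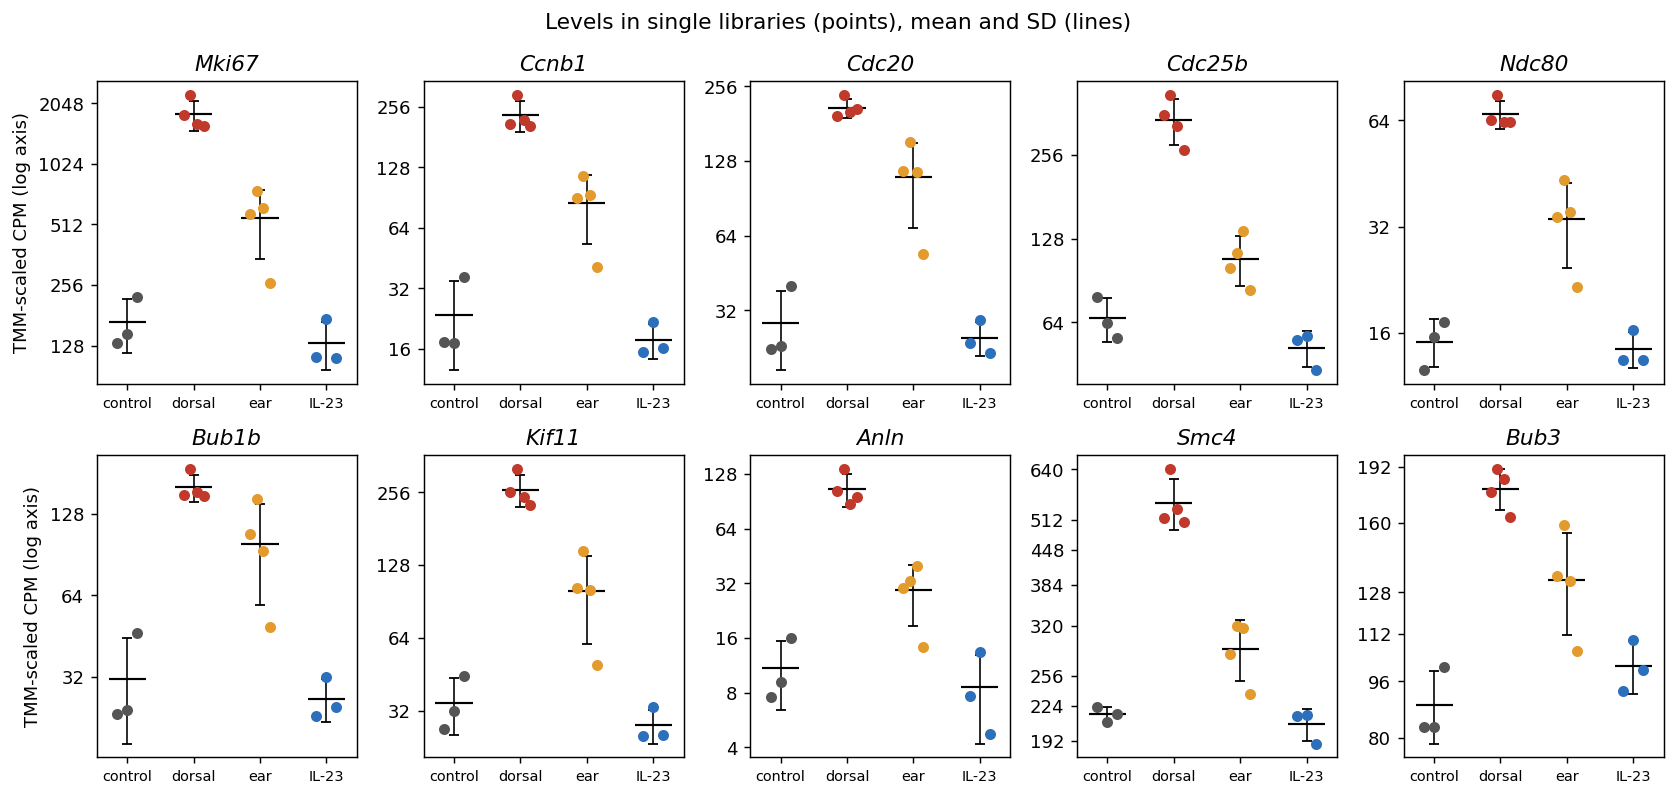
TMM-scaled CPM (log axis) of 10 of the genes in single libraries, coloured by group; points are libraries, the long bar is the group mean and the whiskers are ± SD (n = 3 control, 4 imiquimod-dorsal, 4 imiquimod-ear, 3 IL-23-ear). Mki67 lies between 1579 and 2252 CPM in the imiquimod-dorsal and between 262 and 749 CPM in the imiquimod-ear libraries, while Smc4 and Bub3 show the narrowest spans.

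The imiquimod groups also differed from each other. The amount of cream and the area of skin covered are not given here, so skin site and dose were not separated in this comparison. Against imiquimod-dorsal, the imiquimod-ear spleens had lower levels of 52 of the 55 genes, and none higher. Of all genes tested 24.5% were called lower, 23.3% higher and 47.7% in either direction. The median log2 difference of the 55 was -1.27 (0.02 over all genes tested). In 53 of the 55 genes every imiquimod-dorsal library was above every imiquimod-ear library. Ccna2 had the largest difference, -1.90 ± 0.31 (adjusted p = 3.71e-04), followed by Cenpk at -1.89 ± 0.31 and Anln at -1.85 ± 0.36. Not called by edgeR were Kif20b at -0.47 ± 0.22 (adjusted p = 0.0951), Bub1b at -0.70 ± 0.30 (adjusted p = 0.0698) and Spc24 at -0.74 ± 0.29 (adjusted p = 0.055). DESeq2 called 54 of the 55 lower and limma-voom all 55. Differences by role ran from a median of -0.79 for the spindle checkpoint to -1.49 for cyclins and kinases. Bub1b was at 151, 188, 155 and 149 CPM in the imiquimod-dorsal and 108, 146, 93.2 and 48.9 CPM in the imiquimod-ear libraries, so that imiquimod-ear 3 nearly reached the lowest imiquimod-dorsal library. Cdc25b, by contrast, differed by -1.66 ± 0.17. With scaling by library totals only, Bub1, Bub3, Cdc25c and Kif2c were no longer called.

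After IL-23 injected into the ear no change of these genes was detected in the spleen. None of the 55 was called in either direction, against 0.0528% of all genes tested (8 genes; 0.0462% higher and 0.0066% lower), and none had an unadjusted p under 0.05 in edgeR, DESeq2 or limma-voom. In all 55 genes the IL-23-ear and control libraries overlapped as groups. IL-23-ear 1 lay below every control in 27 genes and IL-23-ear 3 in 30, and each lay above every control in 0. IL-23-ear 2 lay below every control in 1 gene and above every control in 3. The median log2 fold change was -0.20, against 0.01 over all genes tested, and 51 of the 55 were negative. The 95% intervals together spanned -1.34 to 1.11, and those of 40 genes lay wholly within a 2-fold change in either direction. Changes inside a gene's interval were not excluded by these libraries, and the smallest change that would have been called was not estimated. The sign rested on control 5: without that library the median was 0.07 and 35 genes changed sign.

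Mki67 stood at 112, 173 and 111 CPM in the IL-23-ear libraries, a difference of -0.34 ± 0.33 (adjusted p = 0.834), Top2a at 95.6, 132 and 100.4 CPM, Ccna2 at 36.5, 55.2 and 31.8 CPM and Cdk1 at 18.7, 28.9 and 20.2 CPM. In all 4, IL-23-ear 2 was the highest of its group and lay within the control range. The lowest estimates were those of Prc1, with 14.9, 24.3 and 14.7 CPM and a difference of -0.60 ± 0.34 (adjusted p = 0.696), and Hmmr, with 10.5, 15.6 and 9.96 CPM and a difference of -0.49 ± 0.35 (adjusted p = 0.767). The highest were Cdc25c, with 3.26, 3.85 and 2.14 CPM and a difference of 0.26 ± 0.39 (adjusted p = 0.904), and Pttg1, with 12.7, 23.97 and 16 CPM and a difference of 0.21 ± 0.21 (adjusted p = 0.841). Bub3, with 92.95, 109.8 and 99.5 CPM, and Smc4, with 215, 216 and 189 CPM, also stayed near their control levels.

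The remaining genes gave the same picture. Ccnb1 had 15.5, 21.8 and 16.1 CPM, Plk1 15.2, 26.2 and 17.5 CPM, Aurka 11.8, 17.7 and 12.8 CPM, Aurkb 14.7, 22.7 and 18.5 CPM and Cdc25b 55.5, 57.1 and 43.3 CPM. The kinetochore and checkpoint genes Ndc80, Cenpa, Cenpe, Knl1, Bub1 and Mad2l1 differed by -0.07 ± 0.20, -0.16 ± 0.22, -0.11 ± 0.31, -0.38 ± 0.31, -0.10 ± 0.38 and -0.15 ± 0.23 from the controls, in that order. Role medians lay between -0.13 and -0.32.

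Set directly against imiquimod-ear, the IL-23-ear spleens were lower in all 55 genes, against 10.2% of all genes tested called lower, 7.06% called higher and 17.3% in either direction. The median log2 difference was -1.81 (range -2.29 for Hmmr to -0.40 for Bub3). In 52 genes the groups did not overlap, and the 3 that overlapped were Bub3, Pttg1 and Kif20b. Ccnb1 differed by -2.25 ± 0.36 (adjusted p = 0.00273), Cdc20 by -2.15 ± 0.31 and Prc1 by -2.11 ± 0.34. Against imiquimod-dorsal all 55 were lower as well, against 30% of all genes tested called lower, 27.1% called higher and 57.1% in either direction, with a median of -3.01 and no overlap. These 2 comparisons share the IL-23-ear libraries with the comparison against control.

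Within groups, the 55 genes moved as a block from mouse to mouse. Control 5 was the highest control in 52 of them, imiquimod-dorsal 3 the highest of its group in all 55, imiquimod-ear 5 the lowest of its group in all 55 and IL-23-ear 2 the highest of its group in 54. The median coefficient of variation of the 55 genes between mice was 32.0% in the control, 11.9% in the imiquimod-dorsal, 35.0% in the imiquimod-ear and 19.4% in the IL-23-ear group. Over all genes tested the same figures were 10.8%, 10.9%, 13.8% and 9.00%. Their summed level in imiquimod-ear was 4886, 6212, 5144 and 2619 CPM for libraries 1, 3, 4 and 5, beside 1546, 1609 and 2331 CPM in the controls.

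Other genes of the division cycle were read from 3 further lists, which were also chosen with earlier results of these data known. Of all genes tested 32.3% were called higher after dorsal and 14.3% after ear treatment. Of 50 further mitosis genes that are also known to be transcribed mainly in dividing cells, 50 rose in imiquimod-dorsal spleens (median 2.58) and 47 rose in imiquimod-ear spleens (median 1.48). The largest rises were those of Depdc1a (3.45 ± 0.31) and Kif14 (3.32 ± 0.38), a cytokinesis kinesin, after dorsal treatment, and of Sapcd2 (2.09 ± 0.35) and Parpbp (1.90 ± 0.29) after ear treatment. Cep55, which recruits the abscission machinery, went the other way between the imiquimod groups, with 8.05, 9.95 and 12.7 CPM in the control, 17.5, 14.02, 21.04 and 21.3 CPM in the imiquimod-dorsal and 43.5, 58.5, 31.5 and 17.1 CPM in the imiquimod-ear libraries. It was higher in imiquimod-ear than in imiquimod-dorsal spleens by 1.03 ± 0.29 (adjusted p = 0.0123), the only gene of the 50 called in that direction, and was singled out after its values were seen.

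A list of 38 mitosis genes that are transcribed in resting cells too, such as subunits of the anaphase-promoting complex and of cohesin, changed less. After dorsal treatment 30 rose and 2 fell, with a median of 0.61, and after ear treatment 17 rose and 2 fell, with a median of 0.25. Over all genes tested 32.3% were called higher and 27.6% lower after dorsal treatment, and 14.3% and 6.98% after ear treatment. Fzr1 (CDH1), the activator of the anaphase-promoting complex after mitosis, rose most after dorsal treatment, from 55.9, 51.4 and 55.2 CPM to 248, 322, 242 and 214 CPM, a change of 2.24 ± 0.17 (adjusted p = 8.82e-07). The kinetochore subunit Nsl1 rose by 1.99 ± 0.24. Dync1h1, the heavy chain of dynein, fell after both, with log2 fold changes of -0.46 ± 0.08 (dorsal) and -0.35 ± 0.08 (ear). Pogz fell after dorsal treatment (-0.34 ± 0.07), and Numa1, a spindle pole protein, fell after ear treatment (-0.22 ± 0.07).

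Of 40 DNA replication genes, 40 rose after dorsal treatment (median 2.11), against 32.3% of all genes tested. After ear treatment 37 rose (median 0.93), against 14.3%. Rrm2, a subunit of ribonucleotide reductase, rose most in both, by 3.52 ± 0.40 and 1.75 ± 0.37. No gene of the 3 lists was called after IL-23 by edgeR, DESeq2 or limma-voom, and 3 genes, all of the list transcribed in resting cells too, had an unadjusted p under 0.05 with each tool. The mean log2 CPM of the 55 mitosis genes minus that of the 40 replication genes was -0.44 ± 0.07 (SD, n = 3) in the control and -0.59 ± 0.17 (SD, n = 3) in the IL-23-ear libraries, and 0.20 ± 0.08 (SD, n = 4) in the imiquimod-dorsal and 0.03 ± 0.11 (SD, n = 4) in the imiquimod-ear libraries. The highest control, at -0.36, was below the lowest imiquimod library, at -0.07, so the mitosis genes stood higher relative to the replication genes in every imiquimod library. These are descriptions of the lists and carry no test.

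**Figure D4:**
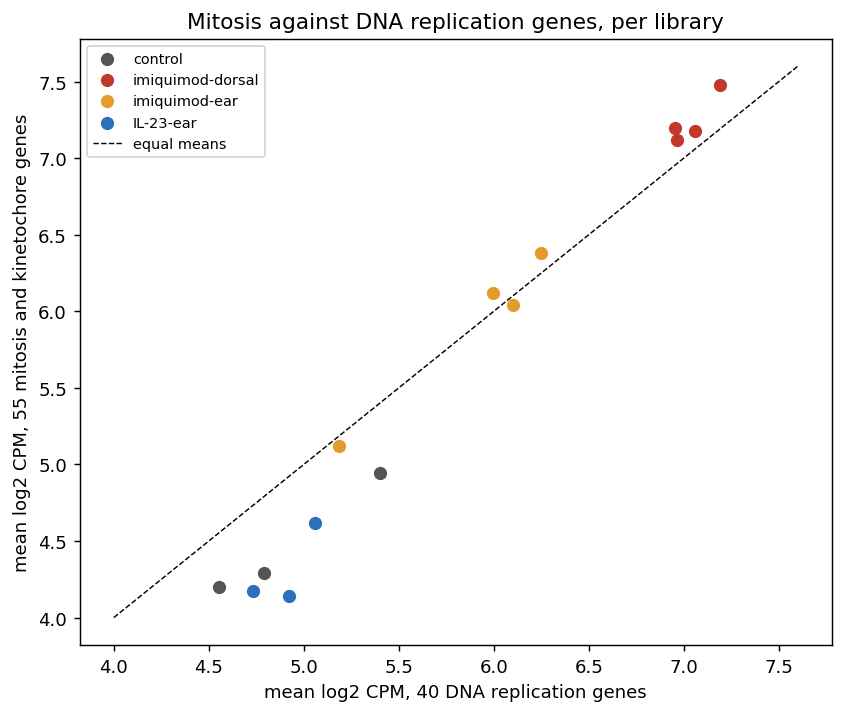
Mean log2 CPM of the 55 mitosis and kinetochore genes (vertical) against that of 40 DNA replication genes (horizontal), 1 point per library, coloured by group; the dashed line marks equal means. Control and IL-23-ear libraries lie below the line and the 4 imiquimod-dorsal libraries above it, and the imiquimod-ear libraries lie close to it.

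Markers of spleen cell types were read beside the mitosis genes. They moved in different ways, and their part in the results was not tested. All 16 erythroid markers rose in imiquimod-dorsal spleens (median 4.20), and their summed level was 893 to 1055 CPM in the control and 11972 to 19302 CPM in the imiquimod-dorsal libraries, with imiquimod-dorsal 3 again the highest. Over all genes tested 32.3% were called higher after dorsal and 14.3% after ear treatment. In imiquimod-ear spleens none of the 16 was called by edgeR, DESeq2 or limma-voom, 1 had an unadjusted p under 0.05 with each tool, and the sums were 1430, 572, 3811 and 1037 CPM for libraries 1, 3, 4 and 5. Imiquimod-ear 3 had the most of the mitosis transcripts in its group and the least of the erythroid ones, below every control. IL-23-ear libraries ranged from 183 to 790 CPM.

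Over all genes tested, 32.3% were called higher and 27.6% lower after dorsal treatment, and 14.3% higher and 6.98% lower after ear treatment. Of 8 granulocyte progenitor markers, such as Mpo and Elane, 7 rose and 1 fell after dorsal treatment and 8 rose after ear treatment. Their sums were 22.5 to 41.4 CPM in the control, 305 to 443 CPM in the imiquimod-dorsal, 87.8 to 281 CPM in the imiquimod-ear and 24.7 to 68.4 CPM in the IL-23-ear libraries. All 10 neutrophil markers, which mix granule genes such as Camp and Ltf with genes such as Cxcr2, rose after dorsal treatment. After ear treatment 5 rose (6 with DESeq2, 3 with limma-voom). With edgeR these were S100a8, S100a9, Camp, Ltf and Ngp, while Cxcr2, Mmp8, Mmp9, Retnlg and Ly6g were not called. Sums of the 10 were 99.3 to 153 CPM in the control and 1139 to 2086 CPM in the imiquimod-dorsal libraries. They were 142 to 612 CPM in the imiquimod-ear and 115 to 445 CPM in the IL-23-ear libraries. Here too imiquimod-ear 3 was the lowest of its group.

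Plasma cell markers separated the imiquimod groups in the other direction. All 10 rose after ear treatment (median 1.41), when 14.3% of all genes tested were called higher. After dorsal treatment 1 rose and 2 fell (median 0.05), when 32.3% of all genes were called higher and 27.6% lower. Their sums were 1318 to 1585 CPM in the control, 1002 to 1574 CPM in the imiquimod-dorsal, 3239 to 4910 CPM in the imiquimod-ear and 1354 to 1765 CPM in the IL-23-ear libraries. Imiquimod-ear 3 was the highest and imiquimod-ear 5 the lowest of its group. The order of libraries within this group rests on 4 mice, and which cells held the mitosis transcripts was not tested. Of 8 germinal center markers 3 rose and none fell after ear treatment, and 2 rose and 4 fell after dorsal treatment.

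Most lymphocyte and stem cell markers fell or were not called. T cell markers fell in 8 of 8 cases after dorsal (median -2.39) and in 1 of 8 after ear treatment, with sums of 732 to 1050 CPM in the control, 193 to 241 CPM in the imiquimod-dorsal, 558 to 940 CPM in the imiquimod-ear and 1065 to 1199 CPM in the IL-23-ear libraries. Of 8 B cell markers 2 fell after dorsal treatment (5 with DESeq2, 2 with limma-voom), when 27.6% of all genes tested were called lower, and 3 fell after ear treatment with each tool, when 6.98% were. None of the 8 was called higher in either comparison by these tools. Of 6 stem and progenitor markers, 1 rose and 4 fell after dorsal treatment. After ear treatment edgeR called none of them, with 2 at an unadjusted p under 0.05, and DESeq2 and limma-voom called none either. Of 6 megakaryocyte markers, 1 rose after dorsal treatment. After ear treatment edgeR and limma-voom called none of the 6, with 4 at an unadjusted p under 0.05, and DESeq2 called 2 higher. No marker of these lists other than those of the pancreas was at 0 in any library.

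**Figure D5:**
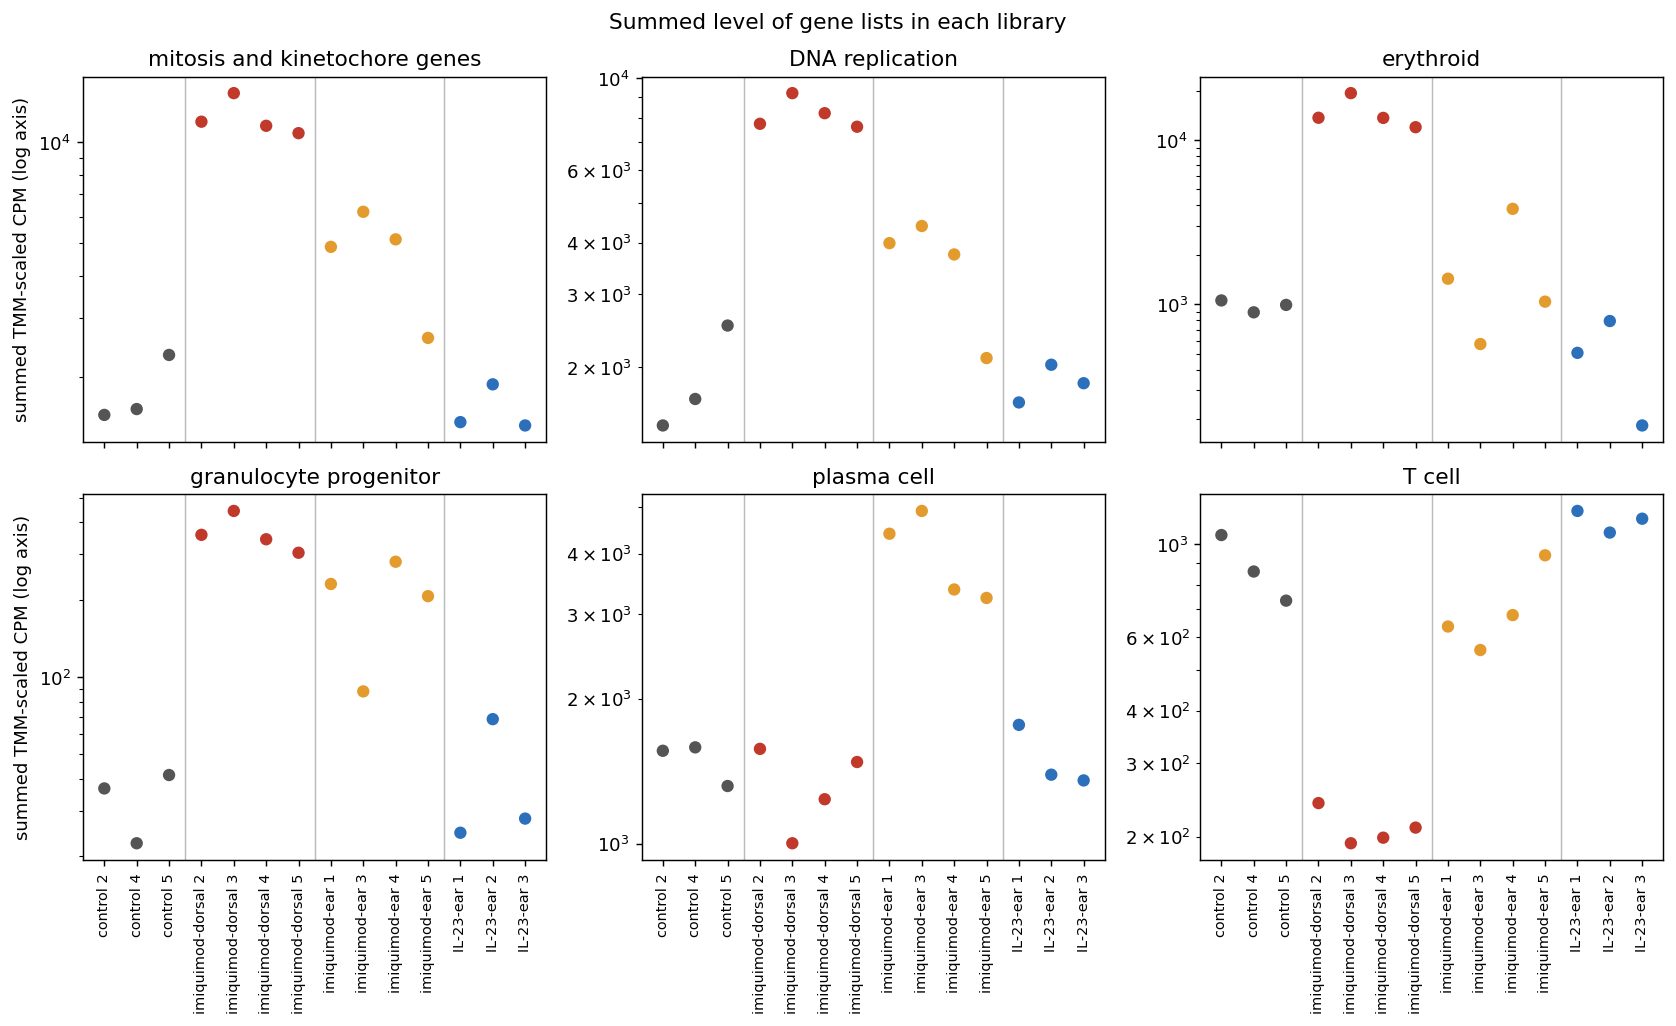
Summed TMM-scaled CPM (log axis) of 6 gene lists in each of the 14 libraries, coloured by group. The mitosis and kinetochore genes, the replication genes and the erythroid markers are highest in the imiquimod-dorsal libraries, the plasma cell markers are highest in the imiquimod-ear libraries, and the T cell markers are lowest in the imiquimod-dorsal libraries.

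Some of the 55 genes share sequence with neighbours. Exons of 31 of them overlap a gene on the other strand, and for 11 the overlap exceeds 10% of the exon length, namely Kif20a, Spc25, Aurka (25.2%), Ncapg (25%), Cdc25c and Ube2c (19.0% each), Kif22 (18.0%), Ccna2 (17.5%), Prc1 (11.8%), Kif4 (11.1%) and Smc2 (10.4%). The libraries do not mark strand, so the counts of these genes may hold reads of the partner.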

How the data were processed

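The deposited table holds raw read counts per gene and library, with no normalization by the authors, as its whole numbers show. Libraries were poly(A)-selected, non-stranded and read from both ends with 150 bases, per the labels' protocols. The submitters' processing notes name fastp 0.23.2, HISAT2 2.2.1, featureCounts 2.0.3 of Subread, StringTie 2.2.1, DESeq2 1.38.3 and GRCm39 without roles or settings. How reads with several matches were counted is not given in the sources used here, and reads are not independent molecules.

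Of 22740 entries, 624 assembled loci without a gene name (0.484% to 0.674% of the counts of a library) were left out. The other 22116 were filtered with filterByExpr (minimum count 10) and fitted with edgeR 4.0.16 in R 4.3.3: TMM scaling, robust quasi-likelihood, all 14 libraries in 1 fit by group, 10 residual degrees of freedom, common biological coefficient of variation 18.7%, adjusted p threshold 0.05. SE is the absolute log2 fold change divided by the square root of F. The scripts were tested on simulated data. Per the labels, all libraries belong to 1 batch and replicates are biological. Alternatives were DESeq2 1.42.0, limma-voom 3.58.1, other scalings, filters and fits, and leaving out each library. Coordinates are of GRCm39 from GENCODE M39, which matched 22101 entries, and promoters are RefSeq's.

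The 55 genes and all lists were chosen with earlier results of these data known. Values in every library are given for a fixed set of genes of the roles and for the 2 largest and 2 smallest changes in each comparison with control. Of the further lists, the 2 largest rises and falls among called genes may be named, and every gene of the 55 that was not called is named.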

Additional observations from a re-analysis of the deposited data

Results flagged for a closer look

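In groups of 4 libraries, 112 checks asked whether the highest or lowest library stood apart from the other 3, by the share of the group's range that its gap to the nearest library takes (Dixon's test at its 95% limit). Chance alone flags about 1 in 20 such groups, and 5 of 112 were flagged. Imiquimod-dorsal 3 stood above the rest for Ndc80 (0.938), Kif18a (0.865), Knl1 (0.841) and Bub1b (0.838). Imiquimod-ear 5 stood below the rest for Kif22 (0.907). The same libraries were the highest and the lowest of their groups for all 55 genes. For Ndc80 the log2 CPM was 6.24 in imiquimod-dorsal 3 and 5.98 to 6.00 in the other 3, and for Kif22 it was 5.30 in imiquimod-ear 5 and 6.32 to 6.42 in the other 3.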

How the results depend on the processing

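In the imiquimod-dorsal comparison all 55 genes stayed called higher, and after IL-23 none was called, under every alternative run. With scaling by library totals only, the median of the 55 was 2.55 for imiquimod-dorsal against control and -2.73 for IL-23-ear against imiquimod-dorsal, while the median of all genes moved by -0.33 and 0.28, and by -0.10 for imiquimod-ear against control and 0.23 for imiquimod-ear against imiquimod-dorsal. Leaving out 1 library at a time gave medians of 2.68 to 3.11 for imiquimod-dorsal against control, 1.35 to 1.82 (43 to 55 genes called higher) for imiquimod-ear against control, -0.38 to 0.0727 for IL-23-ear against control, -1.44 to -1.10 (48 to 55 lower) for imiquimod-ear against imiquimod-dorsal, -2.01 to -1.60 (49 to 55 lower) for IL-23-ear against imiquimod-ear and -3.09 to -2.87 for IL-23-ear against imiquimod-dorsal. No called change reversed its sign. Both kinds of promoter motif were found in 14 rather than 33 genes on the gene's strand only. Samples with the same replicate number did not deviate together: of 13 such pairs 1 had a correlation over 0.1 (range -0.24 to 0.18, against -0.23 to 0.22 for 60 other pairs). With the number as a replicate block, which leaves 6 residual degrees of freedom, 10 rather than 54 genes were called higher in imiquimod-ear against control, with 54 at an unadjusted p under 0.05 and a median of 1.45. The block left all 55 genes called in imiquimod-dorsal against control, 49 in imiquimod-ear against imiquimod-dorsal and 51 in IL-23-ear against imiquimod-ear. Every one of the 55 genes had at least 38 counts in each library; how much of the width of the intervals comes from read depth and how much from the 3 or 4 mice a group was not tested.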
